A study of Mus musculus with 13 samples.

Results

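Chemokines are small secreted proteins that steer leukocytes along gradients, and each acts through 1 or more seven-transmembrane receptors that signal through G proteins on the responding cell. In the liver they are released by hepatocytes, endothelial cells, stellate cells and macrophages, and their receptors sit mostly on the leukocytes that patrol or enter the tissue. The pair Ccl2 and Ccr2 brings monocytes from the blood, Cx3cl1 and Cx3cr1 act on their survival and adhesion, and Cxcl9, Cxcl10 and Cxcr3 act on T and NK cells. Several of these are known to be expressed more strongly in fatty liver disease.

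The genes described are the chemokine ligands and chemokine receptors that the array names as Ccl, Cxcl, Xcl1 or Cx3cl1, and Ccr, Cxcr, Xcr1 or Cx3cr1. By these names 51 genes of 27670 on the array were members, 35 ligands and 16 receptors, on 67 of 41174 probes. Of these, 45 were tested, 33 ligands and 12 receptors, since they were marked by the scanner software as well above background on at least 3 of the 13 arrays. The 6 others, Ccl11, Ccl22, Ccr1, Ccr4, Ccr8 and Ccr10, were too dim to test. 31 members were well above background on every array. Cxcl4, Cxcl7 and Ccl27 are the array's names for Pf4, Ppbp and Ccl27a.

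The RNA came from livers of 13 male C57BL/6 mice, 1 mouse per array, all kept on a high-fat diet of western style for 5 months. The 5 WT mice carried normal SIRT1, a NAD-dependent deacetylase. The 5 TAKI mice carried the SIRT1 TA KI allele and the 3 TEKI mice the SIRT1 TE KI allele, knock-ins at a phosphorylated threonine of SIRT1, which TAKI replaces with alanine and TEKI with glutamate. There was no group on another diet, so every value is from fat-fed liver. Levels are on a log2 scale on which 0 is the array's own 75th percentile, and a difference of 1 is a doubling. Levels of different probes are not comparable with each other, so genes are compared only by their differences and by their patterns over the animals. The 13 arrays were spread over 5 slides, of which the first held WT 1, 2 and 4. WT 3 was on the second, WT 5 and all TEKI on the third, TAKI 1 and 2 on the fourth and TAKI 3 to 5 on the fifth. TAKI and slide therefore cannot be told apart. Between 59.8% and 72.6% of probes were well above background on 12 arrays, and 86.5% on TEKI 1, which stands apart.

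The hepatocyte markers were well above background on all 13 arrays in 7 of 7 cases, as were the Kupffer cell markers in 6 of 6 and the lipid-associated macrophage markers (Gpnmb, Trem2, Spp1, Cd9, Lpl and Itgax) in 6 of 6. Lipid-associated macrophages are monocyte-derived cells known from obese tissue and fatty liver.

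**Figure D1:**
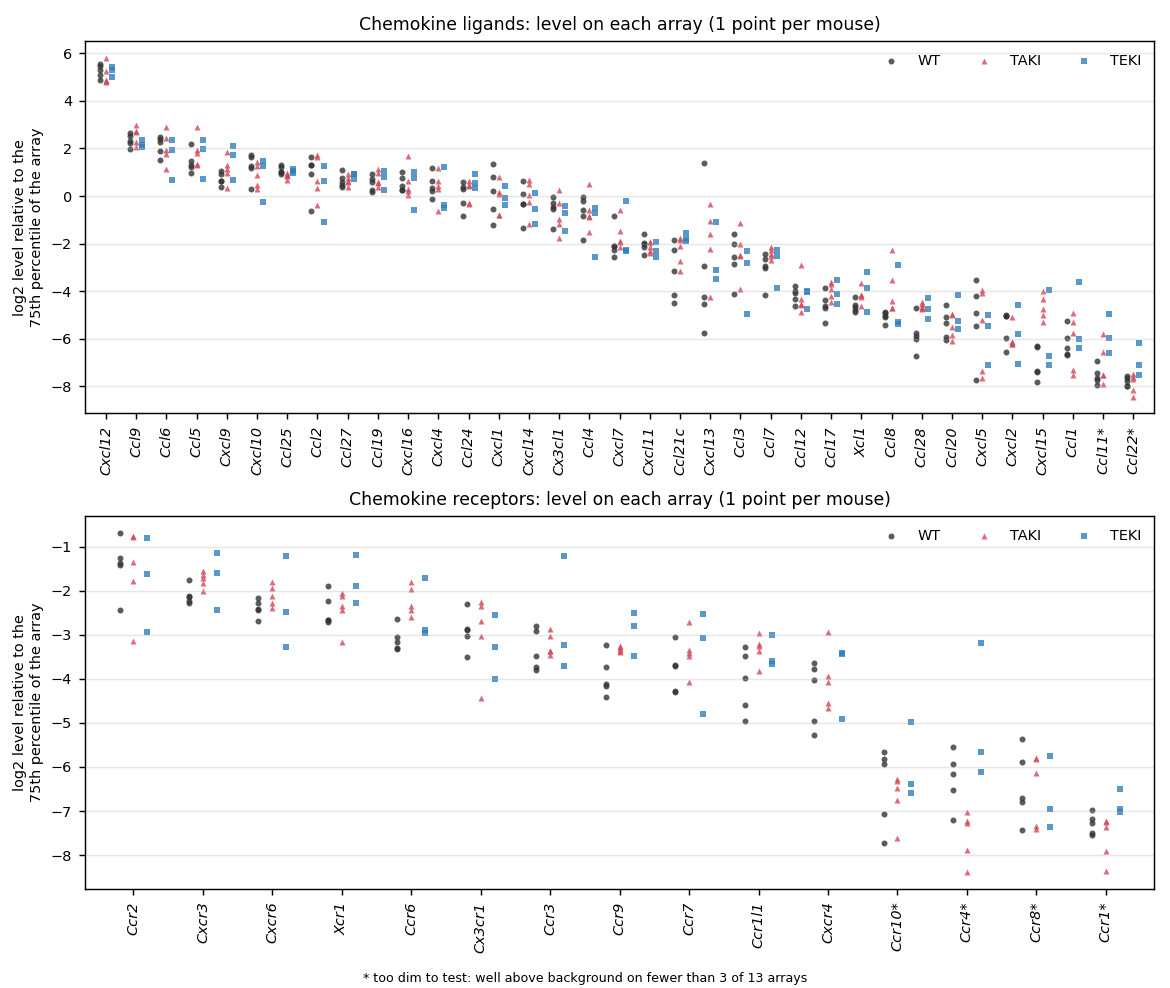
Level of 50 of the 51 members on each of the 13 arrays (log2, with the array's 75th percentile at 0), ligands above and receptors below, with 1 point per mouse and the genotype by colour and shape. Genes are ordered by the mean of their probe, which is not a ranking of transcript amounts, and asterisks mark the 6 members too dim to test. The genotypes overlap in most members, while single members such as Cxcl13 spread from -5.74 to 1.37 over the animals.

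Few chemokine genes passed the test between genotypes. In TAKI minus WT, 1 of 45 members passed the threshold of 0.05 on limma's adjusted p over all 20392 genes tested (Benjamini-Hochberg), against 2.82% of all genes, and 7 members had an unadjusted p under 0.05, against 14.7% of all genes. Both shares are near the background. In TEKI minus WT, limma called 0 members, against 0.0049% of all genes, with 4 at an unadjusted p under 0.05 against 11.6%. In TEKI minus TAKI, limma called 0 members, against 3.45% of all genes, and 0 had an unadjusted p under 0.05, against 12.1%. The WT and TAKI arrays did not overlap in 3 members (Cxcl15, Ccr6 and Ccl8), against 7.49% of all genes. The WT and TEKI arrays overlapped in all 45, where 3.93% of all genes did not overlap. The TAKI and TEKI arrays did not overlap in 1 member (Ccl25), against 8.29% of all genes. The contrasts share arrays, so their values are not independent of each other.

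The median difference over the members was 0.15 for TAKI minus WT, beside 0.0021 over all genes, and 29 of 45 lay above 0, where 50.3% of all genes did. It was 0.17 for TEKI minus WT, beside 0.072, with 25 above 0 (62.5% of all genes), and -0.088 for TEKI minus TAKI, beside 0.064, with 17 above 0 (60.6% of all genes). The 12 receptors had medians of 0.29 in TAKI and 0.40 in TEKI relative to WT, with 10 and 9 of them above 0. The 33 ligands had medians of 0.032 and -0.014. These small shifts depend on the scaling. With each array centred on its median, the TAKI minus WT median was -0.0014 for the members and -0.15 for all genes, with 22 of 45 members above 0. The TEKI minus WT median was then -0.26 (all genes -0.36), with 15 members above 0, and with quantile normalization -0.11, with 18 above 0. The receptor median in TEKI minus WT also turned, to -0.030 with median centring and -0.085 with quantile normalization, and in TAKI minus WT it was 0.14 and 0.17 under these and -0.022 with normexp, a model-based background correction. Single mice moved the TEKI medians too. TEKI minus WT was -0.082 without TEKI 1 (16 above 0), 0.43 without TEKI 3 (38 above 0) and 0.35 within the third slide (35 above 0), while TEKI minus TAKI was 0.22 without TEKI 3 (34 above 0) and 0.076 without TAKI 2 (25 above 0). The place of a probe on the array moves with it too. Members in rows 1 to 266 had a median TAKI minus WT difference of 0.22 (25 members), and those in rows 267 to 532 one of 0.029 (20 members). Over all genes tested these medians were 0.015 and -0.007. For all genes with a mean level under -3 they were 0.46 in the upper rows and -0.018 in the lower. For members under -3 they were 0.60 (9 members) and 0.026 (7 members). In TEKI minus WT, all genes under -3 had medians of 0.49 in the upper rows and 0.69 in the lower, with 79.6% and 86.6% above 0. The members under -3 had TEKI minus WT medians of 0.54 and 0.41. With the row trend removed, the members' median was 0.15 in TAKI minus WT (28 above 0) and -0.040 in TEKI minus WT (20 above 0). The receptor medians were then 0.115 (7 above 0) and -0.064 (5 above 0), and the ligand medians 0.149 and -0.024. The cause of these shifts was not tested.

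**Figure D2:**
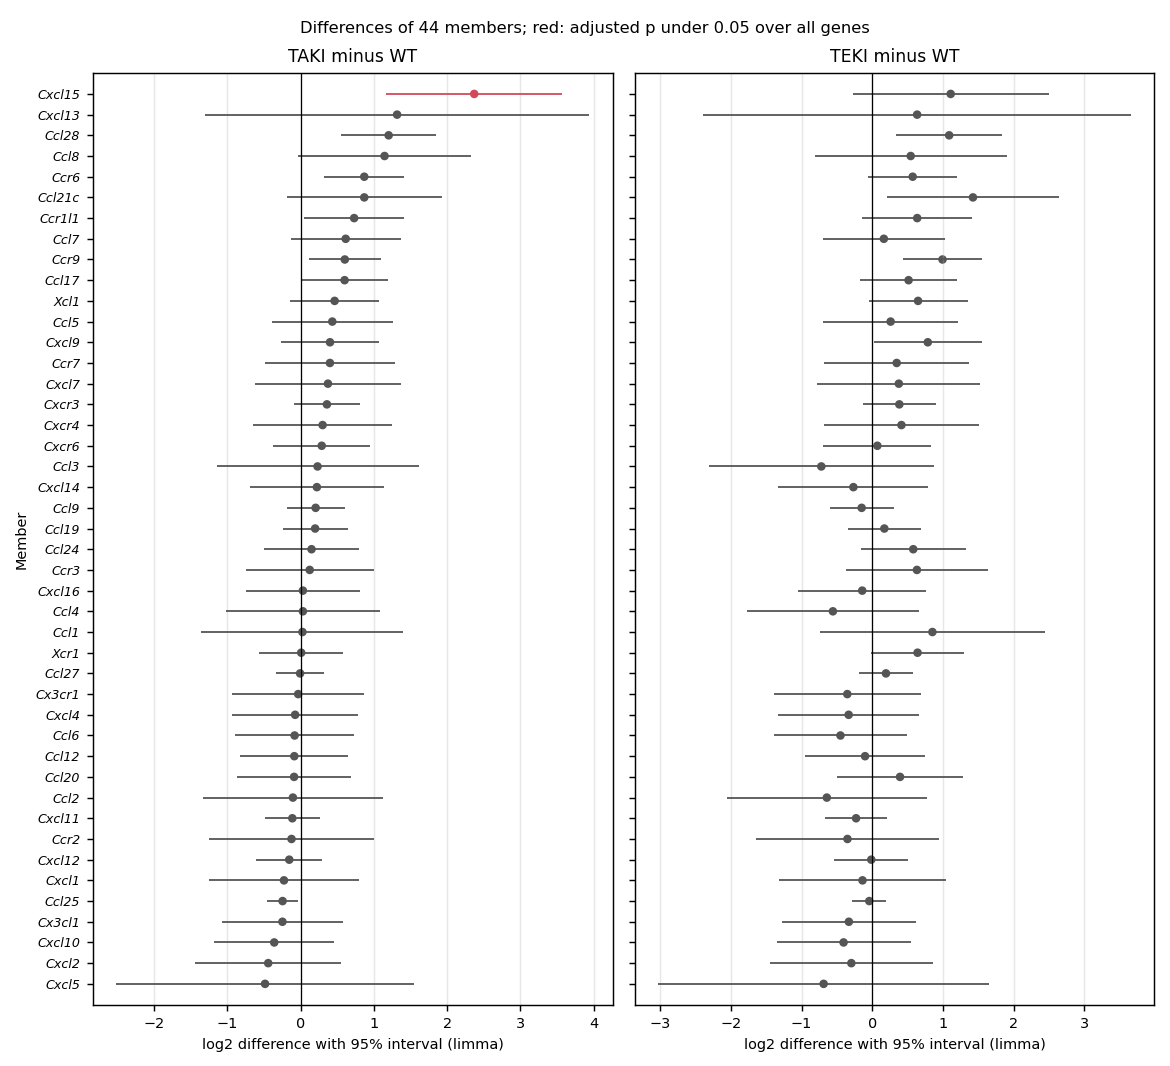
Difference of 44 of the 45 tested members in TAKI minus WT (left) and TEKI minus WT (right), as points with 95% intervals from limma on a log2 axis, ordered by the left panel. Only Cxcl15 in TAKI minus WT is red (adjusted p = 0.0425), and most intervals span 0.

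Cxcl15, a neutrophil-attracting ligand of mouse best known from lung, was the member called in TAKI minus WT. Its levels were -6.32, -7.80, -7.39, -6.30 and -7.36 on WT replicates 1 to 5. They were -4.32, -5.30, -3.98, -4.74 and -4.99 on TAKI replicates 1 to 5, and -3.96, -7.09 and -6.72 on TEKI replicates 1 to 3. All TAKI arrays lay above all WT arrays, while of TEKI only replicate 1 did. The probe was well above background on 0 of 5 WT arrays, 4 of 5 TAKI arrays and 1 of 3 TEKI arrays. WT is therefore not measured precisely. TAKI was 1.94-fold higher when each WT value was raised to the lowest signal among probes well above background on its array. This is not a strict lower bound, since a probe can lie above that signal without being so marked. The TAKI mean also includes the array on which the probe was not well above background. The measured means were -4.67 in TAKI and -7.03 in WT (limma adjusted p = 0.0425, log2 difference 2.37 ± 0.55 SE), so the difference is taken against a group that was not above background. The gene entered the test only through the knock-in arrays, and with no filter on dim genes its adjusted p was 0.0605. In TEKI minus WT the adjusted p was 0.508.

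The Cxcl15 call did not hold in 13 of 26 alternatives, in which limma's adjusted p ranged from 0.00198 to 0.978. It missed the threshold when any of the 10 WT and TAKI arrays was left out (adjusted p 0.0549 to 0.113), with differences of 2.18 to 2.55. With normexp background correction the difference was 0.011 (adjusted p = 0.978). The probe lies in row 70, in the upper rows where dim genes shift upward in TAKI, and with the row trend removed the difference was 1.86 (adjusted p = 0.00916). The gene's other probe, in row 389, matches another transcript record and was well above background on 1 of 13 arrays and could not be tested.

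Among the other members of smallest p in TAKI minus WT, none passed. Ccl28, an epithelial ligand of Ccr10 and Ccr3, was at -6.02, -5.88, -6.71, -5.76 and -4.72 on WT 1 to 5. It was at -4.72, -4.74, -4.44, -4.66 and -4.52 on TAKI 1 to 5. TEKI 1 to 3 were at -4.27, -5.15 and -4.77. The WT values were lower in 4 of 5 mice, and WT 5 lay at the level of the knock-ins. The TAKI minus WT difference was 1.20 ± 0.30 (SE, limma adjusted p = 0.0548), and without WT 5 it was 1.48 (adjusted p = 0.00728). That of TEKI minus WT was 1.09 ± 0.34 (adjusted p = 0.39), but -0.0088 against WT 5, the one WT array on the TEKI slide. The probe was well above background on 1 of 5 WT and 5 of 5 TAKI arrays, and after normexp the TAKI minus WT difference was -0.0033. It lies in row 221, in the upper rows where dim genes shift upward in both TAKI and TEKI, and the part of this was not tested.

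The receptor Ccr6, which marks B cells and some T cells, was at -3.17, -3.30, -3.33, -3.05 and -2.64 on WT 1 to 5. It was at -1.80, -2.43, -1.96, -2.59 and -2.36 on TAKI 1 to 5, above every WT array, and at -1.71, -2.96 and -2.90 on TEKI 1 to 3. The TAKI minus WT difference of 0.87 ± 0.25 (SE) did not pass (limma adjusted p = 0.101). Without TEKI 1 in the fit it was unchanged in size with an adjusted p of 0.0133. Ccl20, its ligand, was well above background on 5 of 13 arrays and differed by -0.088 ± 0.35. Of the lymphocyte markers, 2 of 14 tested rose in TAKI (limma), against 2.82% of all genes, among them Cd2 by 1.05 ± 0.14, and 12 did not pass. The mean level of the 14 was -3.30 to -3.06 for WT, -2.95 to -2.56 for TAKI and -3.16 to -2.03 for TEKI, and their part in the Ccr6 difference was not tested, nor was that of the upward shift of dim genes in the upper rows, where the Ccr6 probe lies (row 154). In bulk liver, more cells of a type and more RNA per cell cannot be told apart.

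Ccr9, the gut-homing receptor of T cells, was at -4.15, -4.41, -3.23, -4.12 and -3.72 in WT. It was nearly constant in TAKI, between -3.39 and -3.26, and was -2.80, -2.51 and -3.49 in TEKI. The differences were 0.60 ± 0.22 in TAKI (limma adjusted p = 0.213) and 0.99 ± 0.26 in TEKI (adjusted p = 0.39), and 0.79 within the TEKI slide. The Ccr9 probe lies in row 212 at a mean level of -3.47, among the dim genes of the upper rows that shift upward in TAKI and TEKI. The part of this was not tested. Ccl25, the ligand of Ccr9, differed by -0.24 ± 0.095 in TAKI (SE, adjusted p = 0.239) and did not pass. Ccl25 lay between 0.92 and 1.29 for WT, 0.66 and 0.95 for TAKI and 0.99 and 1.12 for TEKI, so that TEKI lay above every TAKI array (difference 0.20 ± 0.11, adjusted p = 0.517). With median centring that last difference was -0.074. Another Ccl25 probe, in row 320, was dimmer but well above background on all 13 arrays. It differed by 0.011 ± 0.10 in TAKI minus WT and by 0.13 ± 0.12 in TEKI minus TAKI, where its arrays overlapped. It correlated with the brighter probe at only r = 0.35, so the Ccl25 values above rest on the brighter probe alone.

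In TEKI minus WT, Ccl21c, a ligand of Ccr7, differed by 1.43 ± 0.56 (SE, limma adjusted p = 0.40), but by 0.073 within the slide, where WT 5 at -1.83 was as high as the TEKI arrays at -1.54, -1.91 and -1.82. The other WT arrays were at -4.16, -2.28, -4.51 and -3.13. Ccl21c belongs to a family of near-identical copies, which the probe may not separate. Xcr1, the receptor of cross-presenting dendritic cells, differed by 0.64 ± 0.30 against WT (adjusted p = 0.438) and 0.63 ± 0.30 against TAKI (adjusted p = 0.447), neither passing, and by 0.098 within the slide. Ccl9, a macrophage-derived ligand, differed by -0.36 ± 0.21 in TEKI minus TAKI (adjusted p = 0.555), with levels of 2.15, 2.35 and 2.06 in TEKI and 2.06 to 2.97 in TAKI.

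The axes that recruit monocytes and T cells in fatty liver showed no call by genotype. Ccl2, the monocyte attractant, was at 1.63, 1.30, 1.29, 0.91 and -0.63 on WT 1 to 5. It was at -0.38, 1.72, 0.35, 1.64 and 0.65 on TAKI 1 to 5, and at 0.62, 1.24 and -1.09 on TEKI 1 to 3. The 3 groups overlap over most of their range, with 1 low mouse in each. The difference was -0.10 ± 0.56 (SE) for TAKI minus WT (limma adjusted p = 0.961) and -0.64 ± 0.65 for TEKI minus WT (adjusted p = 0.749), with 95% intervals of -1.33 to 1.13 and -2.06 to 0.78. The TEKI value rests on TEKI 3, without which it was 0.031. Within the third slide it was 0.89, but WT there is WT 5 alone, the low WT mouse. The Ccl2 probe was printed on 10 spots per array.

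Ccr2, the receptor of Ccl2 on monocytes, was at -1.41, -0.69, -1.38, -1.26 and -2.43 in WT. It was at -3.13, -0.75, -1.78, -0.78 and -1.34 in TAKI and at -1.63, -0.80 and -2.94 in TEKI. The lowest array of each genotype was the one lowest in Ccl2. The differences were -0.12 ± 0.52 in TAKI (limma adjusted p = 0.949) and -0.35 ± 0.60 in TEKI (adjusted p = 0.875), the latter being 0.22 without TEKI 3 and 0.64 within the third slide.

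Cx3cl1, a ligand tethered to the cell membrane, was at -0.47, -0.02, -0.30, -0.56 and -1.39 in WT, at -1.76, 0.26, -1.19, -0.31 and -0.98 in TAKI and at -0.73, -0.43 and -1.48 in TEKI. Its receptor Cx3cr1 was at -2.86, -2.88, -2.31, -3.04 and -3.51 in WT, at -4.44, -2.36, -3.03, -2.25 and -2.68 in TAKI and at -3.27, -2.55 and -4.00 in TEKI. WT 5, TAKI 1 and TEKI 3 were again the lowest of their genotypes in both. The 4 differences against WT lay between -0.35 and -0.032 (limma adjusted p 0.83 to 0.986). Within the third slide, against WT 5 alone, TEKI minus WT was 0.51 for Cx3cl1 and 0.23 for Cx3cr1. Without TEKI 3 it was -0.029 and 0.011.

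Of the interferon-induced ligands, Cxcl9 was at 0.63, 0.61, 0.92, 1.03 and 0.36 in WT, at 0.32, 1.86, 1.14, 1.29 and 0.96 in TAKI and at 2.11, 1.71 and 0.67 in TEKI. Cxcl10 was at 1.65, 1.74, 1.19, 1.25 and 0.31 in WT, at 0.28, 1.44, 0.47, 1.28 and 0.87 in TAKI and at 1.25, 1.48 and -0.26 in TEKI. Both were lowest of their genotype in the same 3 mice, but the Cxcl9 means of both knock-ins lay above that of WT and the Cxcl10 means below it. The Cxcl9 difference was 0.79 ± 0.35 in TEKI (limma adjusted p = 0.424), and 1.14 within the slide, and 0.40 ± 0.30 in TAKI. That of Cxcl10 was -0.41 ± 0.43 in TEKI (adjusted p = 0.767), but 0.51 within the slide and 0.14 without TEKI 3, and -0.36 ± 0.38 in TAKI. The shared receptor Cxcr3 lay from -2.28 to -1.76 for WT, -2.00 to -1.55 for TAKI and -2.44 to -1.14 for TEKI (adjusted p 0.479 and 0.545 against WT).

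Further bright members were Ccl5, Ccl6, Cxcl12 and Cxcr6. Ccl5, made by T and NK cells, lay from 0.95 to 2.18 for WT, 1.30 to 2.92 for TAKI and 0.70 to 2.37 for TEKI. Ccl6, a macrophage ligand, lay from 1.50 to 2.48, 1.13 to 2.91 and 0.68 to 2.37. Cxcl12, the stromal ligand of Cxcr4, lay from 4.89 to 5.56, 4.78 to 5.81 and 5.00 to 5.43. These ranges overlap throughout, and none of the 4 members passed in any contrast (limma adjusted p 0.68 to 0.992). Cxcr6, which holds T and NKT cells in the liver, lay from -2.70 to -2.16, -2.39 to -1.80 and -3.28 to -1.20.

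The members varied more between mice of 1 genotype than most genes. Their median within-genotype SD was 0.635, beside 0.294 over all genes tested, and 41 of 45 lay above the latter. The same mice were low in many members. WT 5, TAKI 1 and TEKI 3 were each the lowest of their genotype in 16 of 45 members, 13 ligands and 3 receptors, against 7.12% of all genes. The ligands were Ccl2, Ccl3, Ccl4, Ccl5, Ccl6, Ccl7, Ccl12, Cx3cl1, Cxcl1, Cxcl9, Cxcl10, Cxcl14 and Cxcl16, and the receptors included Ccr2 and Cx3cr1. This pattern was noticed after the values were seen. Ccl4, of the widest range among members well above background on every array beside Ccl2 and Ccl21c, was at -0.05, -0.57, -0.21, -0.84 and -1.85 in WT and at -1.51, 0.51, -0.90, -0.60 and -0.85 in TAKI, and at -0.70, -0.52 and -2.56 in TEKI. In Ccl4 as in Ccl2 these 3 mice lay below the rest of their genotypes, and Ccl3, another ligand that attracts monocytes and T cells, was at -4.11, -3.90 and -4.96 in them.

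**Figure D3:**
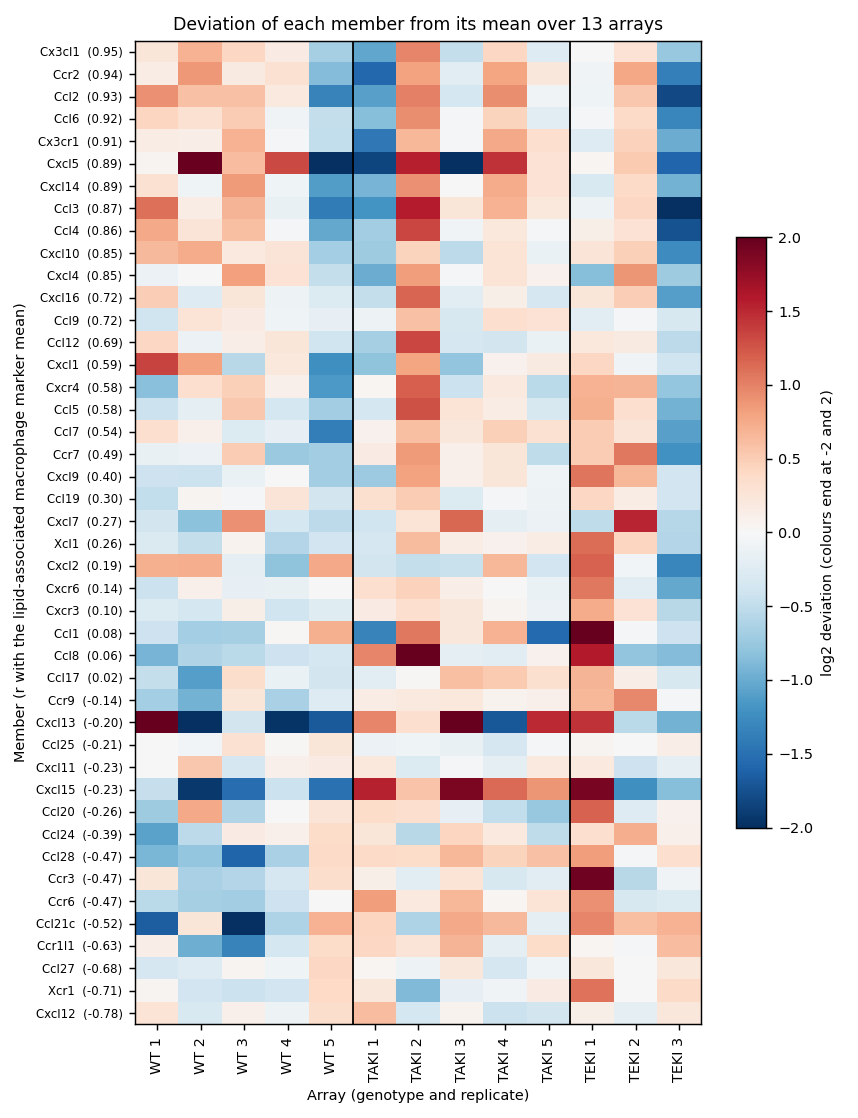
Deviation of 44 of the 45 tested members (rows, log2) from its mean over the 13 arrays (columns, by genotype and replicate), ordered by correlation with the mean of the lipid-associated macrophage markers, which stands beside each name. The columns of WT 5, TAKI 1 and TEKI 3 are blue in most of the upper rows, where r lies between 0.72 and 0.95.

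Many of these members followed macrophage markers from mouse to mouse, here first those of lipid-associated macrophages. The mean of the 6 markers was 1.99, 2.61, 2.58, 2.18 and 0.84 on WT 1 to 5, 0.32, 3.07, 1.22, 2.55 and 1.91 on TAKI 1 to 5, and 1.19, 2.12 and 0.22 on TEKI 1 to 3. It was lowest in the same 3 mice and overlapped between genotypes, and 0 of its 6 genes passed in any contrast by limma (smallest adjusted p 0.488). Over the 13 arrays, 14 of 45 members correlated positively with it at an adjusted permutation p under 0.05 (two-sided, 100000 permutations, adjusted over all 20392 genes), against 6.21% of the 20386 genes outside the list. A further 2 correlated negatively, against 5.67%. Of the 14, 11 were ligands and 3 were receptors.

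The relation was not limited to this list. With the mean of 6 general macrophage markers (Cd68, Csf1r, Adgre1, Itgam, Lyz2 and Cd14), 11 of 45 members correlated positively at an adjusted permutation p under 0.05, against 3.33% of all genes, and 3 did so by rank. Its r was 0.97 for Ccl3, 0.96 for Ccl4, 0.95 for Ccl6 and 0.87 for Cxcl16, beside 0.87, 0.86, 0.92 and 0.72 with the lipid-associated list (permutation p 1e-05 to 8e-05, adjusted p 0.00656 to 0.0093 for the general list, n = 13). Their rho with the general list lay from 0.863 to 0.94 (permutation p 3e-05 to 0.00028, adjusted p 0.0309 to 0.0523), and r from 0.78 to 0.97 without the 2 farthest arrays. For Ccr2 the general list gave r = 0.85 (permutation p = 0.00074, adjusted p = 0.0288) and rho = 0.53 (permutation p = 0.0636), and r was 0.18 without WT 5, TAKI 1 and TEKI 3. The general macrophage mean was 0.90, 0.59 and 0.22 in these 3 mice, the lowest of each genotype. So were the means of the stellate (0.77, 0.41 and 0.68), cholangiocyte (-1.43, -1.46 and -1.29) and neutrophil markers (-3.81, -3.49 and -3.37). The same held for genes that signal below the receptors (-0.36, -0.13 and -0.43) and for inducers of chemokine genes (0.05, 0.27 and 0.11). It did not hold for the Kupffer cell, lymphocyte, dendritic cell and endothelial markers. The cholangiocyte list shares Spp1 with the lipid-associated list, so its mean does not stand apart from that list. Spp1 was at 2.94, 3.03 and 3.66 in these mice, and the cholangiocyte mean without it was not taken. The difference between the lists was not tested.

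The highest with the lipid-associated list were Cx3cl1 (r = 0.95, rho = 0.96), Ccr2 (r = 0.94, rho = 0.91), Ccl2 (r = 0.93, rho = 0.90), Ccl6 (r = 0.92, rho = 0.84) and Cx3cr1 (r = 0.91, rho = 0.80), all with permutation p of 1e-05 to 2e-05 for r over n = 13 and adjusted p of 0.00164 to 0.00221. A p of 1e-05 is the smallest that these permutations can give. For rho, the permutation p of these 5 lay between 1e-05 and 0.00144, with adjusted p of 0.0034 to 0.0228. Without the 2 arrays farthest from the marker median, r was 0.92, 0.87, 0.87, 0.83 and 0.84 in the same order. Without WT 5, TAKI 1 and TEKI 3, it was 0.89, 0.81, 0.82, 0.76 and 0.76 over the other 10 arrays. After each value was centred on its genotype mean, r was 0.97, 0.96, 0.92, 0.91 and 0.92.

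The other 9 included Cxcl5, Cxcl14, Ccl3, Ccl4, Cxcl10, Cxcl4, Cxcl16 and Ccl9, with r from 0.72 to 0.89. Cxcl5 attracts neutrophils and was well above background on only 7 of 13 arrays, so its low values are not measured precisely. For Cxcl16, r dropped to 0.44 without the 3 low mice, and for Cxcl10 to 0.57, so much of their relation rests on those mice. For Ccl3 it dropped to 0.59 and for Ccl4 to 0.65, while for Cxcl5, Cxcl14 and Cxcl4 it was 0.81, 0.71 and 0.72. The relation of Ccl9 did not drop, with r of 0.79. The relation by rank passed for 11 members.

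**Figure D4:**
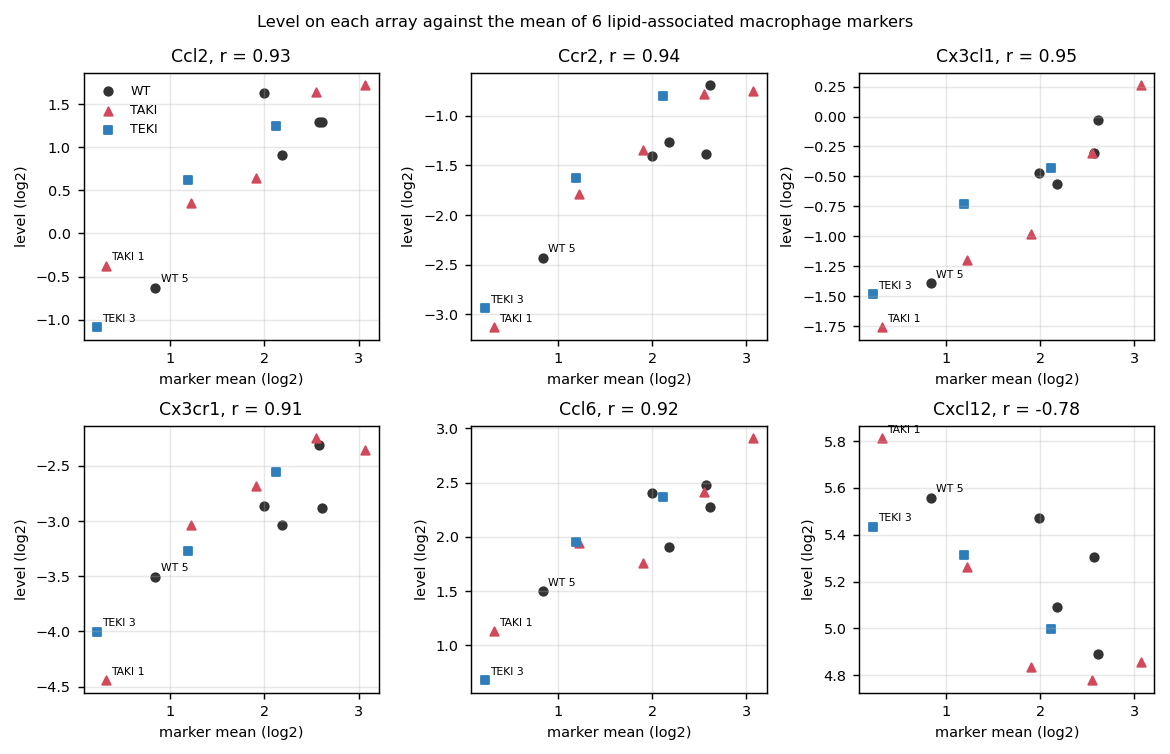
Level of 6 members on each array (log2, vertical) against the mean of the 6 lipid-associated macrophage markers (log2, horizontal), with 1 point per mouse and the genotype by colour and shape. Ccl2, Ccr2, Cx3cl1, Cx3cr1 and Ccl6 rise with the markers in all genotypes (r from 0.91 to 0.95), Cxcl12 runs the other way (r = -0.78), and WT 5, TAKI 1 and TEKI 3 are labelled.

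Cxcl12 and Xcr1 ran against the markers. For Cxcl12, r was -0.78 (permutation p = 0.00211, adjusted p = 0.027) and rho -0.69 (permutation p = 0.0111, adjusted p = 0.0711), and r was -0.68 without the 2 farthest arrays and -0.86 within genotypes. The gene's other probe, in row 496, had r = -0.43. For Xcr1, r was -0.71 (permutation p = 0.00491, adjusted p = 0.0441) and rho -0.86 (permutation p = 0.0003, adjusted p = 0.0107). With the hepatocyte markers the sign was the other way round: 12 of 45 members correlated negatively with their mean at an adjusted permutation p under 0.05, against 5.36% of all genes, with Ccl2 at r = -0.95 and Cxcl10 at -0.88. One member, Ccl27, correlated positively (r = 0.80, permutation p = 0.00111, adjusted p = 0.0211), against 5.46% of all genes. The mean hepatocyte level spanned only 7.68 to 8.25.

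The arrays' own brightness moved with these patterns. The 75th percentile that was subtracted correlated with the lipid-associated macrophage marker mean at r = 0.60 (permutation p = 0.0289, 0.0578 adjusted over 4 relations; rho = 0.60, permutation p = 0.032, adjusted 0.064) and with the hepatocyte marker mean at r = -0.82 (permutation p = 0.00085, adjusted 0.0034; rho = -0.80, permutation p = 0.0018, adjusted 0.0072). Without the 2 arrays of most extreme brightness these were 0.67 and -0.89. The share of probes well above background did not follow the lipid-associated macrophage markers (r = -0.034, permutation p = 0.92). Under median centring, quantile normalization, normexp and removal of the row trend, 18, 15, 13 and 16 members reached an r of at least 0.7, where 14 did so here. The share of all genes reaching this r is not given, so these counts do not set the members apart from other genes. Slides held 1 to 4 arrays, too few for a relation within a slide. WT 5 and TEKI 3 shared the third slide with TEKI 1 and 2, and TAKI 1 was on the fourth, and the part of the slide was not tested.

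Ligands varied together with their own receptors in 6 of 16 pairs tested of the 25 listed (adjusted permutation p under 0.05 over the 16 pairs, n = 13). Ligands with the receptors of other ligands were not taken, so the count does not single out a ligand's own receptor. Ccl2, Ccr2, Cx3cl1 and Cx3cr1 all followed the same marker mean (r from 0.91 to 0.95). Among the 6 pairs were Ccl2 with Ccr2 (r = 0.91), Cx3cl1 with Cx3cr1 (r = 0.84) and Cxcl9 with Cxcr3 (r = 0.73). The permutation p of these 3 lay from 9e-05 to 0.00434, and from 0.00144 to 0.0116 after adjustment. By rank, rho lay from 0.615 to 0.841, with permutation p of 0.00063 to 0.0284, and the pair Cxcl9 and Cxcr3 missed the threshold (adjusted p = 0.0756). Without the 2 arrays farthest in the ligand, r was 0.87 for Ccl2 with Ccr2, 0.69 for Cx3cl1 with Cx3cr1 and 0.47 for Cxcl9 with Cxcr3.

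The other ligands of Cxcr3 did not pass with it: r was 0.23 for Cxcl10 (permutation p = 0.449) and -0.23 for Cxcl11 (permutation p = 0.441). Cxcl12 with Cxcr4 had r = -0.46 (permutation p = 0.112), Ccl25 with Ccr9 -0.006 (permutation p = 0.983) and Cxcl16 with Cxcr6 0.44 (permutation p = 0.131). These pairs did not pass at n = 13.

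Some members had a high r with the lymphocyte markers but none passed the adjustment. Cxcr3 had r = 0.91 with the lymphocyte marker mean (permutation p = 4e-05, adjusted p = 0.0727) and 0.85 without TEKI 1, and Xcl1, a ligand of NK and T cells, had r = 0.84 (permutation p = 0.00055, adjusted p = 0.105). Of 20378 other genes, 0 passed with the lymphocyte markers, where 3296 had an unadjusted p under 0.05. Cxcl13, the B-cell attractant bound by Cxcr5, was at 1.37, -5.74, -2.92, -4.52 and -4.23 in WT, at -1.58, -2.22, -0.35, -4.24 and -1.06 in TAKI and at -1.11, -3.10 and -3.51 in TEKI. It was singled out after its values were seen, for the widest range of all members. WT 1 was the highest of all mice and WT 2 the lowest, a range of about 7.11 within 1 genotype. In WT 2 the probe was not well above background, and its value sits at the lowest level that counted as such on that array (-5.74), so the range is not measured precisely. Its level followed the mean of the 6 Kupffer cell markers (r = 0.88, permutation p = 6e-05; rho = 0.89, permutation p = 0.00014), with r of 0.83 without the 2 farthest arrays and 0.87 within genotypes. Neither passed the adjustment over all genes (adjusted p = 0.174 and 0.278), and with these markers 0 of 20386 genes did, where 1410 had an unadjusted p under 0.05. The Kupffer marker mean was 3.23 in WT 1 and 1.57 in WT 2. Its genes were averaged without scaling, so the most variable of them weigh most. The most variable was at 5.63 in WT 1 and 0.90 in WT 2, while another was at 4.21 and 4.15.

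Upstream sequences are shown for some of the members whose promoters held a match to an NF-kappaB or interferon site, since those sites are the textbook inputs to this family. They come from the RefSeq promoter table (GRCm38.p6), which holds 42 promoters of 38 of the 51 members, each reaching from 250 bases before the start to 50 after it. A consensus site of NF-kappaB, the inflammatory transcription factor, was found on either strand in 10 of the 42, beside 8.46% of all 32851 promoters. The interferon-stimulated response element, in the form of its core repeat and searched on both strands, was found in 3 (Cxcl10, Cxcl14 and Ccl19), beside 3.44%. Positions count back from the start site. Capitals mark the matches, 5′ to 3′ on the strand of the gene, where overlapping matches run together.
Cxcl10, chr5:92348979-92349109, minus strand: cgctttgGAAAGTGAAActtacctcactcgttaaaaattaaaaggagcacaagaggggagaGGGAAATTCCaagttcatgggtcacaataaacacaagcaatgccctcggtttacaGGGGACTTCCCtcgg
Cxcl1, chr5:90891155-90891195, plus strand: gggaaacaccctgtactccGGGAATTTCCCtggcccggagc
Cxcl2, chr5:90903784-90903824, plus strand: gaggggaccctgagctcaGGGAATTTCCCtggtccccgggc
Cxcl14, chr13:56296701-56296751, minus strand: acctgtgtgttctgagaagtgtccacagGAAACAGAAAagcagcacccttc
In Cxcl10 the interferon element began at -213 and the NF-kappaB matches at -159, -104 and -103, with the last of these overlapping. Cxcl1 and Cxcl2, neighbouring neutrophil attractants, held the same NF-kappaB letters at -71 and -97, and Cxcl14 the interferon element at -172.

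Not all members that followed the lipid-associated macrophage markers held these motifs. Of the 14 members that followed the lipid-associated macrophage markers, 9 had a promoter in the table, and 2 of these held the NF-kappaB consensus (Cxcl10 and Ccl9) and 2 the interferon element (Cxcl10 and Cxcl14). Ccr2, Cx3cr1, Cx3cl1 and Ccl6 held neither in this window. Cxcl1, with an NF-kappaB match, was at 1.35, 0.80, -0.56, 0.22 and -1.22 in WT and had r = 0.59 with the markers (permutation p = 0.0333, adjusted p = 0.14), and Cxcl2 was well above background on 5 of 13 arrays. A match is a description of letters in this window.

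Several members were measured by more than 1 probe, and in some these did not agree. The start of each 60-base probe is given (first 30 bases, lower case, 5′ to 3′, with the mm7 position of the whole probe), since the choice of probe decides what is read.
Cxcl15, row 70, chr5:90774196-90774255, plus strand: agttttgaaagaggtgttactgatcatgtt
Cxcl15, row 389, chr5:90766592-90769265, plus strand: aaggaagtgatagcagtcccaaaaaatggg
Cxcr4, row 184, chr1:128469220-128469279, minus strand: catattatgtggggatcagcatcgactcct
Cxcr4, row 330, chr1:128468640-128468699, minus strand: aggaagaaactgaacattccagaatgtgtg
Cx3cr1, row 167, chr9:119745795-119745854, minus strand: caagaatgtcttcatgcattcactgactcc
Cx3cr1, row 452, chr9:119747387-119747446, minus strand: ttcttccccagttgtgacatgaagagggac
Cxcl12, row 175, chr6:117207552-117207611, plus strand: aggagaaggcagcttcctatatgcagcgtg
Cxcl12, row 496, chr6:117200799-117200858, plus strand: gaattaatcataaacggaagtttaaatgag
The 2 Cxcr4 probes lie in the same transcript record and correlated with r = 0.56 over the arrays. The brighter, in row 330, was at -4.95, -3.78, -3.64, -4.02 and -5.28 in WT and at -4.08, -2.93, -4.56, -3.94 and -4.66 in TAKI, and differed by 0.30 ± 0.44 (SE, limma adjusted p = 0.826). The dimmer, in row 184, was at -6.15, -5.53, -4.69, -5.46 and -5.51 in WT and at -3.80, -3.78, -4.30, -4.23 and -4.20 in TAKI. With that probe, singled out after its values were seen, no WT and TAKI array overlapped, and the difference was 1.41 ± 0.27, unadjusted since only the brightest probe of a gene was tested. This probe was well above background on 10 of 13 arrays. It lies in the upper rows, where dim genes shift upward in TAKI, and the brighter probe lies in the lower. The part of this in their disagreement was not tested.

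The Cx3cr1 probes ran opposite over the arrays (r = -0.48), with the probe in row 452 well above background on 9 of 13 and at -1.43, -3.75 and -3.79 in TEKI against -5.97 to -4.08 in TAKI. Its correlation with the lipid-associated macrophage marker mean was -0.50, where that of the probe in row 167 was 0.91. The Cx3cr1 results above therefore rest on 1 of 2 probes. The Cxcl12 probes, which match different transcript records, correlated with r = 0.17, and that in row 496 differed by 0.32 ± 0.11 in TAKI minus WT where that in row 175 differed by -0.15 ± 0.21. Probes agreed for Ccl5 (r = 0.99), Ccl24 (0.95), Cxcl16 (0.91), Ccl19 (0.91) and Ccr2 (0.85), and both Ccr2 probes followed the markers (r = 0.94 and 0.80). Those of Ccl7 differed in this, with r of 0.54 for the brighter probe, in row 90, and 0.93 for that in row 421.

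**Figure D5:**
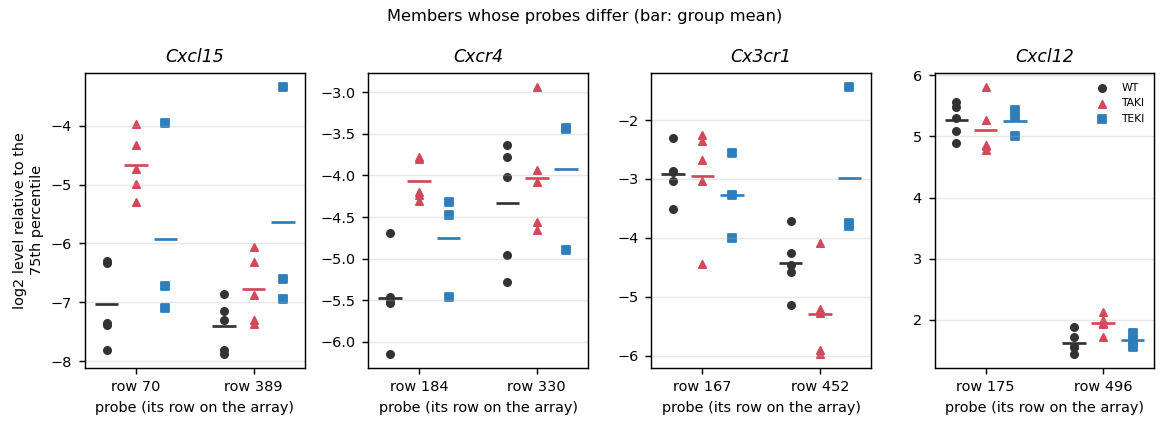
Level on each array (log2, with the array's 75th percentile at 0) for both probes of Cxcl15, Cxcr4, Cx3cr1 and Cxcl12, named by their row on the array, with the genotype by colour and shape and bars at group means. The Cxcr4 probe in row 184 separates WT from TAKI and the one in row 330 does not, and the Cx3cr1 probes order the genotypes differently.

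Genes around the members did not pass either. Of 12 tested genes of the chemokine system that the names leave out, such as atypical receptors that scavenge chemokines, limma called 0 in each contrast, with 1 at an unadjusted p under 0.05 in each. The smallest p were those of Cmklr1, a chemerin receptor, in TAKI minus WT (1.20 ± 0.44 SE) and of Cxcr2, the neutrophil receptor, which the array lists as Il8rb, in TEKI minus TAKI (0.80 ± 0.36). Of 30 genes that signal below the receptors, limma called 0 in each contrast, with 1, 1 and 2 at an unadjusted p under 0.05 in the contrasts in the order above. Tiam1, an exchange factor for Rac, differed by 1.02 ± 0.28 in TAKI minus WT (limma adjusted p = 0.0788) and by -1.08 ± 0.32 in TEKI minus TAKI (adjusted p = 0.113). Of 25 inducers of chemokine genes, such as cytokines and NF-kappaB subunits, limma called 0 in each contrast, with 1, 0 and 1 at an unadjusted p under 0.05. Rela, an NF-kappaB subunit, differed by -0.28 ± 0.11 in TAKI minus WT.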

How the data were processed

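Total liver RNA was labelled with Cy3 and hybridised to 1-colour Agilent whole-mouse-genome arrays, per the labels. The authors deposited scanner output of Agilent Feature Extraction 9.5 (named in the submitters' processing notes), which gives a background-subtracted linear intensity per spot without scaling across arrays, according to its headers. Their deposited value table repeats these intensities exactly (largest difference 0). Here, flagged spots were left out (54 to 187 per array), log2 was taken, spots of 1 probe were averaged and the array's 75th percentile was subtracted. Per gene, the brightest probe was tested if well above background on at least 3 arrays. limma 3.58.1 in R 4.3.3 fitted 1 model of genotype over 13 arrays (10 residual degrees of freedom), adjusted over 20392 genes. On simulated data, it recovered 70% of genes with a TAKI minus WT change of 1 and 86% of those with 2, and 60% and 84% for TEKI minus WT. The changes were put into 200 genes drawn from all those tested. The members varied more, with a median within-genotype SD of 0.635 beside 0.294 over all genes, and recovery among them was not simulated. Nothing states that mice came from separate litters, so p-values measure the spread between these mice. The number of arrays limits the precision.

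Members with values given were those called, the 3 ligands and 2 receptors of smallest p per contrast, the 6 ligands and 4 receptors of brightest probe, the 3 of widest range among those well above background on all arrays, and Ccl2, Ccr2, Cxcl9, Cxcl10, Cxcr3, Cx3cl1, Cx3cr1, Cxcl12 and Cxcr4. One member and 1 marker gene are counted but not reported here by name. Members and lists were chosen with earlier results of these data known. Correlations used 100000 permutations in Python 3.11.15 with numpy 2.4.6. Same-numbered mice did not deviate together (correlations -0.232 to 0.323). Alternatives were other scalings, background corrections, filters, probe choices, blocks and fits without each array.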

Additional observations from a re-analysis of the deposited data

How the results depend on the processing

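The Cxcl15 call, the counts of called genes, the members' median shifts and the direction of some small differences changed with the processing. With 1 member called in TAKI minus WT, the count was 3 with median scaling, 2 with quantile normalization, 0 with normexp, 0 with no filter, 4 with array weights, 3 with only the compared groups fitted, 0 with slide as a random block, and 0 to 3 on leaving out each array. The 575 genes called in this contrast (383 higher, 192 lower) became 999 with median scaling (579 higher, 420 lower), 880 with quantile normalization, 647 with normexp (168 higher, 479 lower), 2254 with array weights, 1333 with only the compared groups and 295 to 1312 on leaving out each array (1312 without TEKI 1). In TEKI minus WT, 0 members were called under every alternative run. The 1 gene called there became 2 with median scaling, 5 with quantile normalization, 0 with normexp, 2 with no filter, 4 with the row trend removed, 2 with array weights, 0 with slide as a fixed block, 0 within the third slide, and 1 to 93 without single arrays (93 without TEKI 2, 17 without WT 5). In TEKI minus TAKI, the 0 members became 1 with quantile normalization, 6 with normexp and 1 with no filter, and 0 to 1 without single arrays (1 without TEKI 1). The 704 genes (505 higher, 199 lower) became 1131 with quantile normalization (495 higher, 636 lower) and 4195 with normexp (4024 higher, 171 lower), 408 to 1099 without single arrays (1099 without TEKI 1, 408 without TEKI 3), and split into 520 higher and 503 lower with median scaling and 374 higher and 401 lower with the row trend removed. The causes were not tested.

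Of 413 alternative values of 15 named differences, 378 kept their direction and side of the threshold, 13 lost the call and 17 gained one. The 5 reversed were Cxcl15 in TEKI minus TAKI (0.30) and Ccl28 in TAKI minus WT (-0.0033) with normexp, Ccl28 in TEKI minus WT with slide as a fixed block and within the third slide (-0.0088 in both), and Ccl25 in TEKI minus TAKI with median scaling (-0.074). The 6 correlated pairs became 6 to 8 under the other settings and 5 to 7 without single arrays. The 14 members with r of at least 0.7 to the lipid-associated macrophage markers became 13 to 18, and 12 to 16 without single arrays. That count and its alternatives were added after the data were seen, and the share of all genes is not given beside them. With the replicate number as a replicate block, 343 genes and 1 member were called in TAKI minus WT, although the numbers did not pair the mice. Signal over background limits Cxcl15, Ccl28, Cxcl2, Cxcl5, Ccl20 and Ccl1, which were well above background on 3 to 7 of 13 arrays.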
